A study of Macaca mulatta with 52 samples.

Results

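Cytosolic ribosomal protein genes were taken as the identifiers of a rhesus macaque embryo count table whose symbol is RPL, RPLP or RPS followed by a number, with or without a paralog letter. Mitochondrial ribosomal protein genes and the ribosomal S6 kinases do not match this pattern. The rule found 68 of 26309 identifiers, 39 of the large subunit and 29 of the small subunit, under 65 symbols. RPS2, RPS24 and RPS27A each stood on 2 identifiers, which are told apart here by their ID. RPL10, RPS27 and one RPS2 identifier (ENSMMUG00000029267) had no count in any library. From a preset list of known members, RPL11, RPL41, RPLP0 and RPS6 matched no identifier by name and were not analysed here. Other ribosomal protein genes outside that list, among them RPL14, RPL23 and RPS18, are missing from the set too. Only 15078 of the 26309 identifiers carry a name. The shares and ratios below therefore cover the members found by name and not all proteins of the ribosome.

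A ribosome is built from a small subunit, which holds the mRNA and reads its codons, and a large subunit, which joins the amino acids and leads the new chain out through a tunnel. Each ribosomal protein is needed in step with the others, and most of their mRNAs begin with a tract of pyrimidines that lets the cell switch their translation on and off together. An early embryo starts with ribosomes and mRNAs stored in the oocyte, and its own genome takes over during cleavage.

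The embryos came from in vivo matured oocytes of hormone-stimulated rhesus females, fertilised in vitro and cultured in a defined medium, later with calf serum. The protocol includes culture with and without relaxin, and the labels do not say which embryo had which. Cumulus cells, the follicle cells around the oocyte, were pipetted off, and total RNA of single samples was made into libraries with SPIA or SoLo. In SPIA the cDNA is copied linearly from a primer that is part RNA, and in SoLo, meant for small inputs, ribosomal RNA is removed after a first amplification. The SPIA libraries used here were 9 of 8-cell embryos, 11 of morulae, 14 of expanded blastocysts and 2 of delayed blastocysts. The SoLo libraries were 4 of 8-cell embryos, 3 of morulae and 6 of expanded blastocysts. For 11 embryos the titles tie a SPIA library to a SoLo library. Each title carries a code, and most codes belong to 1 stage, so for those stage and the source marked by the code cannot be told apart. Code 020816 holds both 8-cell embryos and morulae, and code 112515 both delayed and expanded blastocysts.

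The SPIA libraries held between 0.601 and 21.04 M counts each, and the SoLo libraries between 5.70 and 10.6 M. A count of 0 over all libraries of a kit allows a level of up to 0.00897 CPM (counts per 1 M counts of the library) in SPIA and 0.0287 CPM in SoLo, counting error only. In SPIA, 20 identifiers without a name took 3.32% to 70.8% of a library's counts, and in SoLo 12.9% to 40.9%. Oocyte and cleavage markers were lower in expanded blastocysts than in 8-cell embryos for 3 of 3 genes in SPIA and 2 of 3 in SoLo, and blastocyst markers were higher for 2 of 4 and 3 of 4. The 10 cumulus and granulosa cell markers summed to between 4.47 and 1615 CPM in 8-cell SPIA libraries and between 21.1 and 2262 CPM in 8-cell SoLo libraries, and to at most 146 CPM in any later library; none of the 10 was at 0 in every 8-cell library of either kit. The sums were highest in the 8-cell embryos 020816_06, 020816_07 and 112815_02. Sperm markers reached at most 29.1 CPM and blood markers at most 8.26 CPM. Both SoLo columns of code 111215 held RPS4Y1, a Y-linked member, at 169 CPM, whereas the labels give these columns to embryos 111215_01 and 111215_03, whose SPIA libraries held 195 and 0.276 CPM; these columns were not tied to an embryo, and values without them are given where they enter.

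The members found by name took a small share of each library. Large subunit genes took 0.307% to 0.508% of the counts in 8-cell SPIA libraries (mean 0.397% ± 0.0720, SD, n = 9), 0.263% to 0.790% in morulae (0.446% ± 0.164, n = 11) and 0.189% to 0.686% in expanded blastocysts (0.338% ± 0.143, n = 14). The 2 delayed blastocysts held 0.326% and 0.404%. The ranges of the SPIA stages overlapped throughout. Small subunit genes ran from 0.173% to 0.425% in 8-cell embryos, from 0.184% to 0.693% in morulae and from 0.121% to 0.507% in expanded blastocysts, again with overlap. In SoLo the large subunit share was 0.786% ± 0.114 (n = 4) in 8-cell embryos, 0.949% ± 0.129 (n = 3) in morulae and 0.909% ± 0.0915 (n = 6) in expanded blastocysts. These shares were taken of totals that include the 20 unnamed identifiers, whose median share in SPIA was 26.3% in 8-cell embryos, 54.0% in morulae and 57.5% in expanded blastocysts. Without those identifiers in the total, the mean large subunit share in SPIA was 0.534%, 0.830% and 0.709% in the same order.

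**Figure D1:**
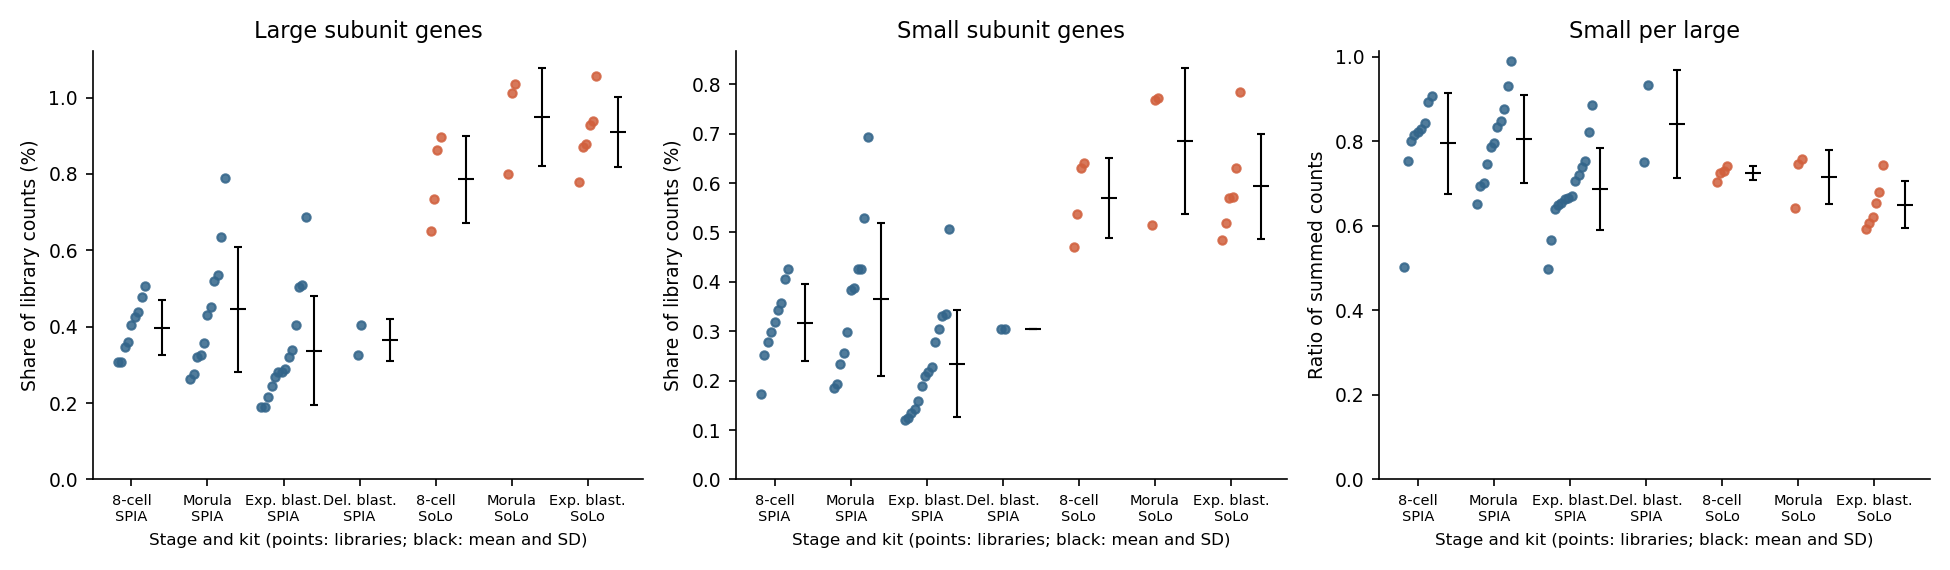
Share of each library's counts in large subunit genes (left, %) and small subunit genes (middle, %), and the ratio of small to large subunit counts (right), by stage and kit. Points are libraries and black marks are the mean with its SD; SoLo libraries sit higher in both shares (1.12% to 1.84% for all members) than most SPIA libraries (0.310% to 1.48%).

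From the 8-cell stage to the morula, 16 ribosomal protein genes rose in each kit, of which 10 were called in both. The share of all genes called in both kits was not counted, so this overlap is not read as a result about the members. Most other members did not pass the test. The fitted log2 fold change was above 0 for 52 of 64 members in SPIA and 53 of 63 in SoLo. In SPIA, 16 of the 64 members tested rose and 1 fell, where 9.06% of all 15578 genes tested rose and 10.3% fell (edgeR quasi-likelihood test, adjusted p under 0.05 over all genes tested). Large subunit genes gave 11 of 37 higher and 1 lower, with a median log2 fold change of 0.53, and small subunit genes 5 of 27 higher and none lower, with a median of 0.68, beside −0.14 over all genes tested. In SoLo, 16 of 63 members rose and 0 fell, where 9.78% of 14196 genes rose and 6.92% fell; 27 members had an unadjusted p under 0.05 in either direction, and DESeq2 and limma voom each gave 1 member as lower. There the medians were 0.47 for 37 large and 0.48 for 26 small subunit genes, beside −0.06 over all genes. Each library is a whole embryo, so less RNA per cell and fewer cells of a type cannot be told apart in any of these values. The 7 SoLo embryos of these stages also have SPIA libraries, so the kits are not independent groups of embryos. In a fit of only the SPIA libraries of embryos with both kits, 0 members rose, where 3.09% of all genes did.

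**Figure D2:**
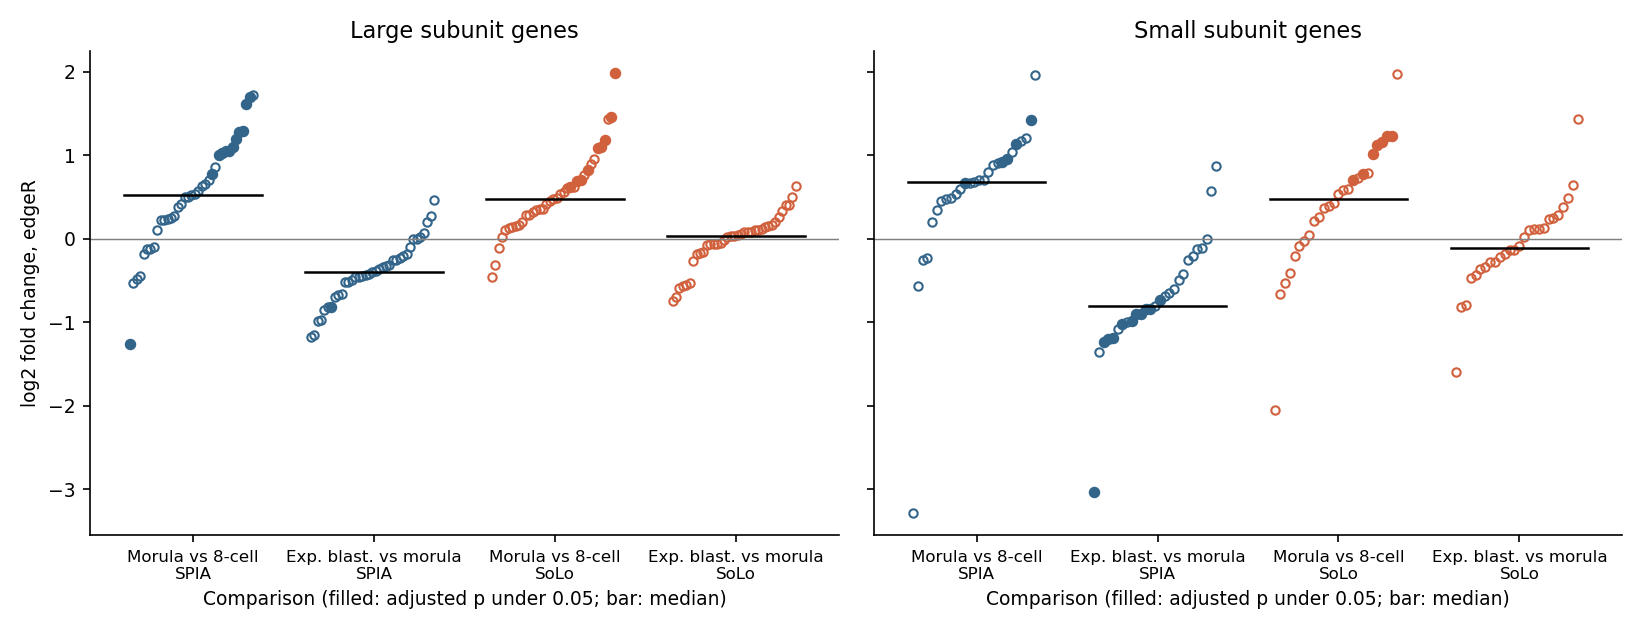
log2 fold change of each tested member in the step from 8-cell to morula and from morula to expanded blastocyst, by kit, with large subunit genes on the left and small subunit genes on the right. Filled points passed the adjusted p of 0.05 and bars are medians; most points lie above 0 in the first step in both kits, and in the second step below 0 in SPIA and around 0 in SoLo.

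RPL7, a structural protein of the large subunit, had the lowest adjusted p of this step in SoLo. Its level was 86.8, 110, 60.9 and 95.9 CPM in the 4 8-cell embryos and 435, 386 and 233 CPM in the 3 morulae. Every morula was above every 8-cell embryo, with a log2 fold change of 1.99 ± 0.25 (SE, adjusted p = 5.88e-05). In SPIA, RPL7 ran from 53.5 through a median of 68.8 to 173 CPM in 8-cell embryos and from 46.3 through 165 to 253 CPM in morulae. These groups overlapped, and the log2 fold change was 1.10 ± 0.33 (adjusted p = 0.0160).

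RPL5, which carries the small ribosomal RNA of the large subunit into the ribosome and is one of the genes mutated in Diamond-Blackfan anaemia, held narrow levels in SoLo. It stood at 282, 262, 236 and 247 CPM in 8-cell embryos and at 566, 548 and 537 CPM in morulae. No value overlapped, and RPL5 rose by 1.10 ± 0.16 on the log2 scale (adjusted p = 0.00024). In SPIA the log2 fold change of RPL5 was 0.51 ± 0.26 and did not pass (adjusted p = 0.173), with 8-cell libraries from 103 to 524 CPM and morulae from 242 to 436 CPM. Without 8-cell library 011516_02, the highest of its group, RPL5 passed at 0.75 (adjusted p = 0.0306).

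Among proteins that line the exit tunnel, RPL39 was low and variable in SPIA. Its 8-cell libraries ran from 0 through a median of 10.7 to 32.2 CPM and its morulae from 13.7 through 29.6 to 165 CPM, with overlap, and the log2 fold change was 1.70 ± 0.62 (adjusted p = 0.0453). In SoLo it stood at 104, 64.3, 37.7 and 129 CPM in 8-cell embryos and 156, 201 and 175 CPM in morulae, apart from each other, with a log2 fold change of 1.08 ± 0.33 (adjusted p = 0.0311). The RPL39 call ended in 10 of the single-library omissions in SPIA, with an adjusted p of up to 0.139 without morula 021016_04, and in SoLo without 020816_07, 020816_08, 021016_03 or 022916_01 (up to 0.0808). RPL22, an RNA-binding protein at the surface of the large subunit, rose by 1.46 ± 0.27 in SoLo (adjusted p = 0.00170), from 90.7, 91.3, 41.0 and 117 CPM to 268, 226 and 205 CPM, and the groups did not overlap. In SPIA its log2 fold change was 1.05 ± 0.37 (adjusted p = 0.0364), a call that 6 single-library omissions ended (adjusted p up to 0.0678, without 8-cell embryo 011516_03).

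RPL13 and RPL9, both structural proteins of the large subunit, rose in each kit. RPL13 had a log2 fold change of 1.00 ± 0.27 in SPIA (adjusted p = 0.00921) and 0.71 ± 0.18 in SoLo (adjusted p = 0.0150, and 0.0570 without morula 021016_03). RPL9 had 1.05 ± 0.32 in SPIA (adjusted p = 0.0183) and 1.18 ± 0.25 in SoLo (adjusted p = 0.00373). RPLP1 is one of the acidic stalk proteins that bring elongation factors to the ribosome. It rose by 1.198 ± 0.41 in SPIA (adjusted p = 0.0333), a call that ended without 011516_03, 112815_01, 112815_02, 020816_02 or 022416_02 (adjusted p up to 0.0601). In SoLo RPLP1 gave 0.89 ± 0.30 (adjusted p = 0.0535) and passed without 8-cell embryo 020816_06 (adjusted p = 0.0323). Its stalk partner RPLP2 did not pass in either kit, at 0.70 ± 0.40 and 0.20 ± 0.35.

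RPL3, which reaches towards the peptidyl transferase centre, was the 1 member called lower in SPIA, at −1.27 ± 0.40 (adjusted p = 0.0229). One 8-cell library, 020816_09, held 2670 CPM of RPL3, and the other 8 8-cell libraries held at most 313 CPM. Morulae ran from 120 through a median of 220 to 297 CPM, inside the range of those 8. Without that library the log2 fold change was −0.09 (adjusted p = 0.862). In SoLo, RPL3 gave 0.35 ± 0.20 and did not pass (adjusted p = 0.244).

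**Figure D3:**
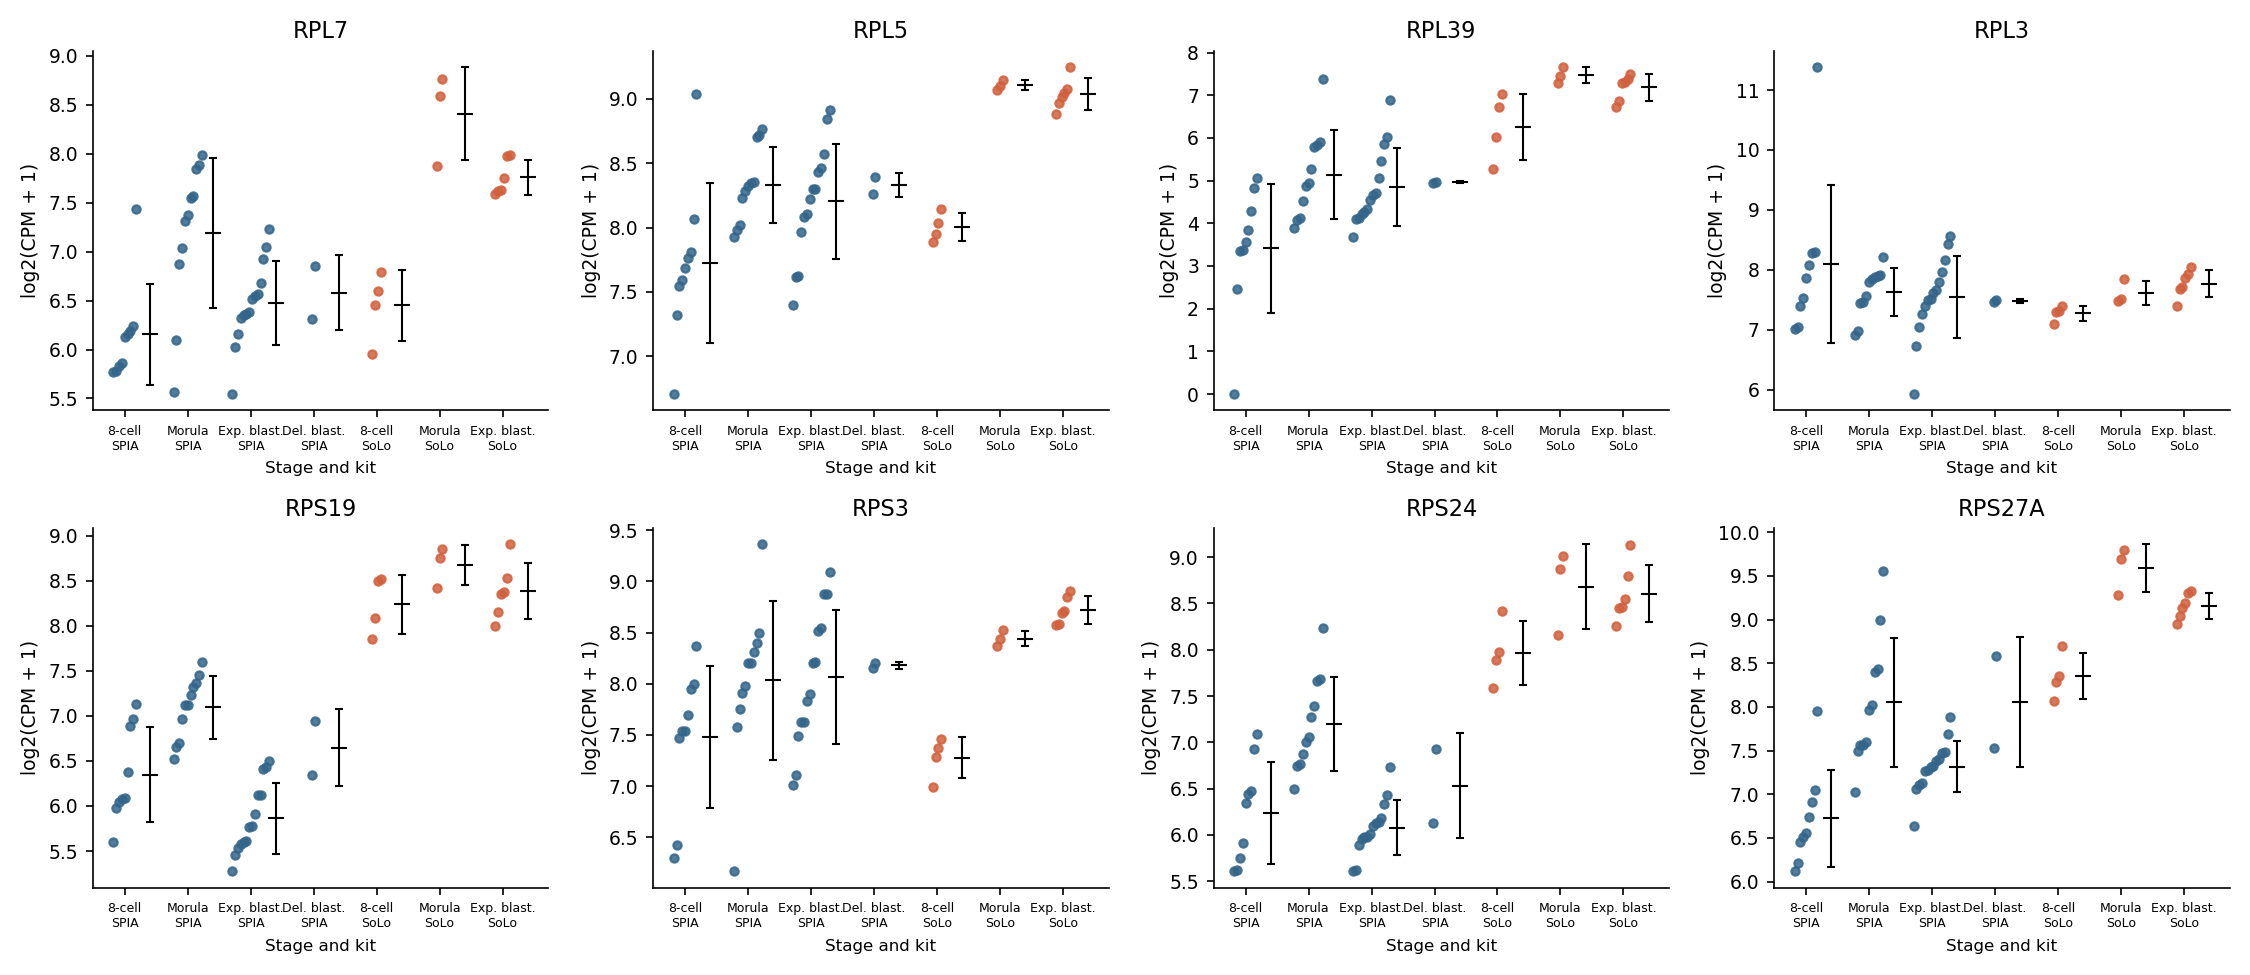
Level of 8 members in every library as log2(CPM + 1), scaled within each kit, by stage and kit; points are libraries and black marks the mean with its SD. RPL7, RPL5 and RPS3 show morulae apart from 8-cell embryos in SoLo, RPS19 shows SPIA morulae apart from SPIA expanded blastocysts, and 1 8-cell SPIA library stands out for RPL3; RPS24 is ENSMMUG00000030562 and RPS27A is ENSMMUG00000015563.

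In the small subunit, RPS27A is made as a fusion with ubiquitin that is later split. Its identifier ENSMMUG00000015563 rose in both kits. SPIA 8-cell libraries ran from 68.4 through a median of 93.3 to 248 CPM and morulae from 129 through 250 to 750 CPM, with overlap and a log2 fold change of 1.42 ± 0.31 (adjusted p = 0.00182). In SoLo it went from 327, 312, 267 and 416 CPM to 886, 825 and 620 CPM with no overlap, a log2 fold change of 1.23 ± 0.19 (adjusted p = 0.000406). The other RPS27A identifier, ENSMMUG00000013907, was at most 8.40 CPM in 8-cell SPIA libraries and did not pass in either kit.

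RPS3, which lies where mRNA enters the small subunit, stood at 155, 164, 127 and 175 CPM in 8-cell SoLo libraries and at 346, 366 and 329 CPM in morulae. The groups did not overlap, and RPS3 rose by 1.16 ± 0.18 (adjusted p = 0.000329). In SPIA its ranges were 77.7 to 330 and 70.9 to 656 CPM, and 0.60 ± 0.32 did not pass (adjusted p = 0.188). RPS3A, another protein of the small subunit, went in SoLo from 267, 210, 146 and 273 CPM to 588, 518 and 476 CPM, again with no overlap (1.23 ± 0.22, adjusted p = 0.00124). RPS12 rose in both kits, by 1.13 ± 0.32 in SPIA (adjusted p = 0.0123) and 1.02 ± 0.28 in SoLo (adjusted p = 0.0191, and 0.0894 without morula 022916_01).

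RPS24 (ENSMMUG00000030562) and RPS19 are both mutated in Diamond-Blackfan anaemia and act in the maturation of the small subunit. RPS24 rose in SPIA, from a median of 80.0 to 132 CPM with overlapping ranges (0.96 ± 0.31, adjusted p = 0.0245); the adjusted p was 0.0576 without morula 022416_02. In SoLo, RPS24 (ENSMMUG00000030562) gave 0.73 ± 0.26 and did not pass (adjusted p = 0.0612), but passed without 8-cell embryo 020816_06 (0.0330) or morula 022916_01 (0.0217). RPS19 did not pass in either kit, at 0.70 ± 0.30 in SPIA (adjusted p = 0.0926, and 0.0225 with DESeq2) and 0.42 ± 0.23 in SoLo (adjusted p = 0.217).

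The counts of members depended on single libraries and on scaling. In SPIA the number higher was 8 without 8-cell embryo 011516_03, 9 without morula 021016_04 and 10 without morula 022416_02. The number lower was 0 without 020816_09 (7.85% of all genes) and 2 without morula 021016_03 (9.57%), and in SoLo it was 1 without morula 022916_01 (5.69%). In the 3 SPIA omissions that left 8, 9 and 10 members higher, the share of all genes that rose was 8.98%, 8.45% and 8.56%. The number higher in SPIA was 1 when libraries were scaled by their totals alone, which moved the median over all genes from −0.14 to −0.45 and left 5.87% of all genes higher. Without the 3 8-cell embryos richest in cumulus markers, 13 members were higher in SPIA (9.01% of all genes). The same omission leaves 1 8-cell library in SoLo, 020816_08, which the fit assumes to vary like the other groups, so its count for SoLo is not read here.

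From the morula to the expanded blastocyst the kits gave different counts. In SPIA, 12 of 64 members fell and 0 rose (9.95% of all genes fell and 4.71% rose), and 11 of the 12 were small subunit genes. The median log2 fold change was −0.81 for small and −0.40 for large subunit genes, beside −0.29 over all genes. With edgeR, 20 of the 64 members had an unadjusted p under 0.05 in either direction. In SoLo, 0 of 63 members passed in either direction with edgeR, DESeq2 or limma voom, where 1.14%, 4.78% and 3.97% of all genes passed with these tools in turn, and 6 members had an unadjusted p under 0.05. SoLo medians were 0.04 for large and −0.11 for small subunit genes. A test of whether the step differed between kits, over the 11 embryos with both, called 0 of 63 members (0.00% of all genes; 4 members with an unadjusted p under 0.05, edgeR), and gave the same counts for the earlier step (0 of 63, 0.00% of all genes, 4 members). That test had no term for the embryo, so the SPIA and SoLo libraries of an embryo were treated as independent. Without morula 022416_02 the number of members lower in SPIA was 5 (9.74% of all genes), and without expanded blastocyst 111215_03 it was 7 (8.43% of all genes). Without both SoLo columns of code 111215 no member passed in SoLo (0.0501% of all genes). Without morula 022916_01 RPL7 was lower in SoLo, at −0.92 (adjusted p = 0.0140; −0.69 ± 0.22 and 0.131 with it), and 9.77% of all genes passed.

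RPS19 had the lowest adjusted p of these falls. It ran from 91.2 through a median of 138 to 193 CPM in SPIA morulae and from 37.7 through 53.6 to 89.6 CPM in SPIA expanded blastocysts. The lowest morula was above the highest expanded blastocyst, and RPS19 fell by 1.23 on the log2 scale (SE 0.27, adjusted p = 0.00232). In SoLo its morulae at 343, 432 and 461 CPM overlapped expanded blastocysts, which ran from 255 through 329 to 478 CPM, and −0.27 ± 0.21 did not pass (adjusted p = 0.564).

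RPS24 (ENSMMUG00000030562) ran from 89.1 to 300 CPM in SPIA morulae and from 48.0 to 105 CPM in expanded blastocysts, with a short overlap and a log2 fold change of −1.19 ± 0.27 (adjusted p = 0.00323). Leaving out any 1 library ended the call of neither RPS19 nor RPS24. RPS27A (ENSMMUG00000015563), at −0.90 ± 0.27 (adjusted p = 0.0184), no longer passed without morula 021016_04 (adjusted p = 0.0691). RPS27L, a paralog of RPS27, fell by 1.21 (SE 0.40, adjusted p = 0.0345), and 8 of the single-library omissions ended that call (adjusted p up to 0.0624, without morula 022416_02). RPL7 was the large subunit gene that fell, at −0.81 ± 0.29 (adjusted p = 0.0456), and 18 single-library omissions ended it (adjusted p up to 0.0861, without morula 022916_02).

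Over both steps together, from the 8-cell embryo to the expanded blastocyst, SPIA gave 3 of 64 members higher and 5 lower (12.9% of all genes rose and 23.7% fell). SoLo gave 24 of 63 higher and 1 lower (18.6% and 19.8% of all genes). These comparisons share their 8-cell and blastocyst libraries with the ones above. The 3 higher in SPIA were RPL12 at 1.02, RPL27 at 0.85 and RPS12 at 0.88, and among the 5 lower were RPS27L at −1.78, RPL3 at −1.27, RPL28 at −1.28 and RPS28 at −1.23; RPL12, RPL27, RPL28 and RPS28 were named after their values were seen. Without 8-cell embryo 020816_09 the RPL3 value was again no longer called (adjusted p = 0.825) and 3 members were lower (20.8% of all genes). The number higher in SPIA was 6 without 8-cell embryo 011516_02, where 13% of all genes rose. It was 1 without any 1 of 8-cell embryos 011516_03, 020816_09, 020816_10 and 112815_01 or expanded blastocysts 111215_01, 111715_02 and 112515_03. In the omissions that left 1 member higher, between 12.3% and 13.6% of all genes rose.

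In SoLo the 24 higher members were 15 of 37 large and 9 of 26 small subunit genes. RPS3 went from between 127 and 175 CPM in 8-cell embryos to 379, 415 and 479 CPM as the lowest, median and highest of 6 expanded blastocysts, with no overlap (1.44 ± 0.16, adjusted p = 4.69e-06). RPL5 went from between 236 and 282 CPM to 472, 522 and 607 CPM, also apart (1.04 ± 0.14, adjusted p = 3.72e-05). The members lower numbered 2 without expanded blastocyst 112415_03 and 3 without 8-cell embryo 112815_02. Without both SoLo columns of code 111215, 17 members were higher and 1 lower. The shares of all genes called in these SoLo omissions are not given here, so their counts are not set against all genes.

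Between the 2 delayed and the 14 expanded blastocysts no member was called: 0 of 64 members passed in either direction with edgeR, DESeq2 or limma voom, and 0 had an unadjusted p under 0.05, where 0.00% of all genes passed with edgeR, 0.16% with DESeq2 and 0.00642% with limma voom. The median log2 fold change was −0.14 for large and 0.35 for small subunit genes, beside −0.24 over all genes, and with 2 libraries in a group the test had little precision. RPL5 stood at 307 and 336 CPM in the delayed blastocysts, inside the 168 to 482 CPM of the expanded ones. RPS19 stood at 80.3 and 123 CPM, of which the second is above the 89.6 CPM of the highest expanded blastocyst.

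The same embryos gave different levels of single members in the 2 kits. All members together took a larger share of the counts in SoLo than in SPIA in 11 of 11 embryos, for example 1.81% against 0.961% in morula 021016_02, and the ratio of small to large subunit counts was lower in SoLo in all 11. With all libraries scaled together, 23 of 63 members were higher in SoLo and 15 lower (8.84% of all 13307 genes tested were higher and 10.9% lower). This fit had terms for stage and kit but none for the embryo, so the 2 libraries of an embryo were treated as independent. The SEs and adjusted p-values given for the kits come from it. Large subunit genes gave 16 higher and 10 lower, and small subunit genes 7 higher and 5 lower. The median log2 fold change was 0.17 for large and −0.11 for small subunit genes, beside 0.04 over all genes. In a paired fit with the embryo as a replicate block, 24 members were higher and 14 lower, and the 11 members named by rule for the kits kept their call and direction. Scaling by library totals alone moved the median over all genes to 0.77 and gave 35 members higher and 3 lower, so the split between higher and lower is relative to the scaling. The shares of all genes called in the paired fit and with library totals are not given here.

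**Figure D4:**
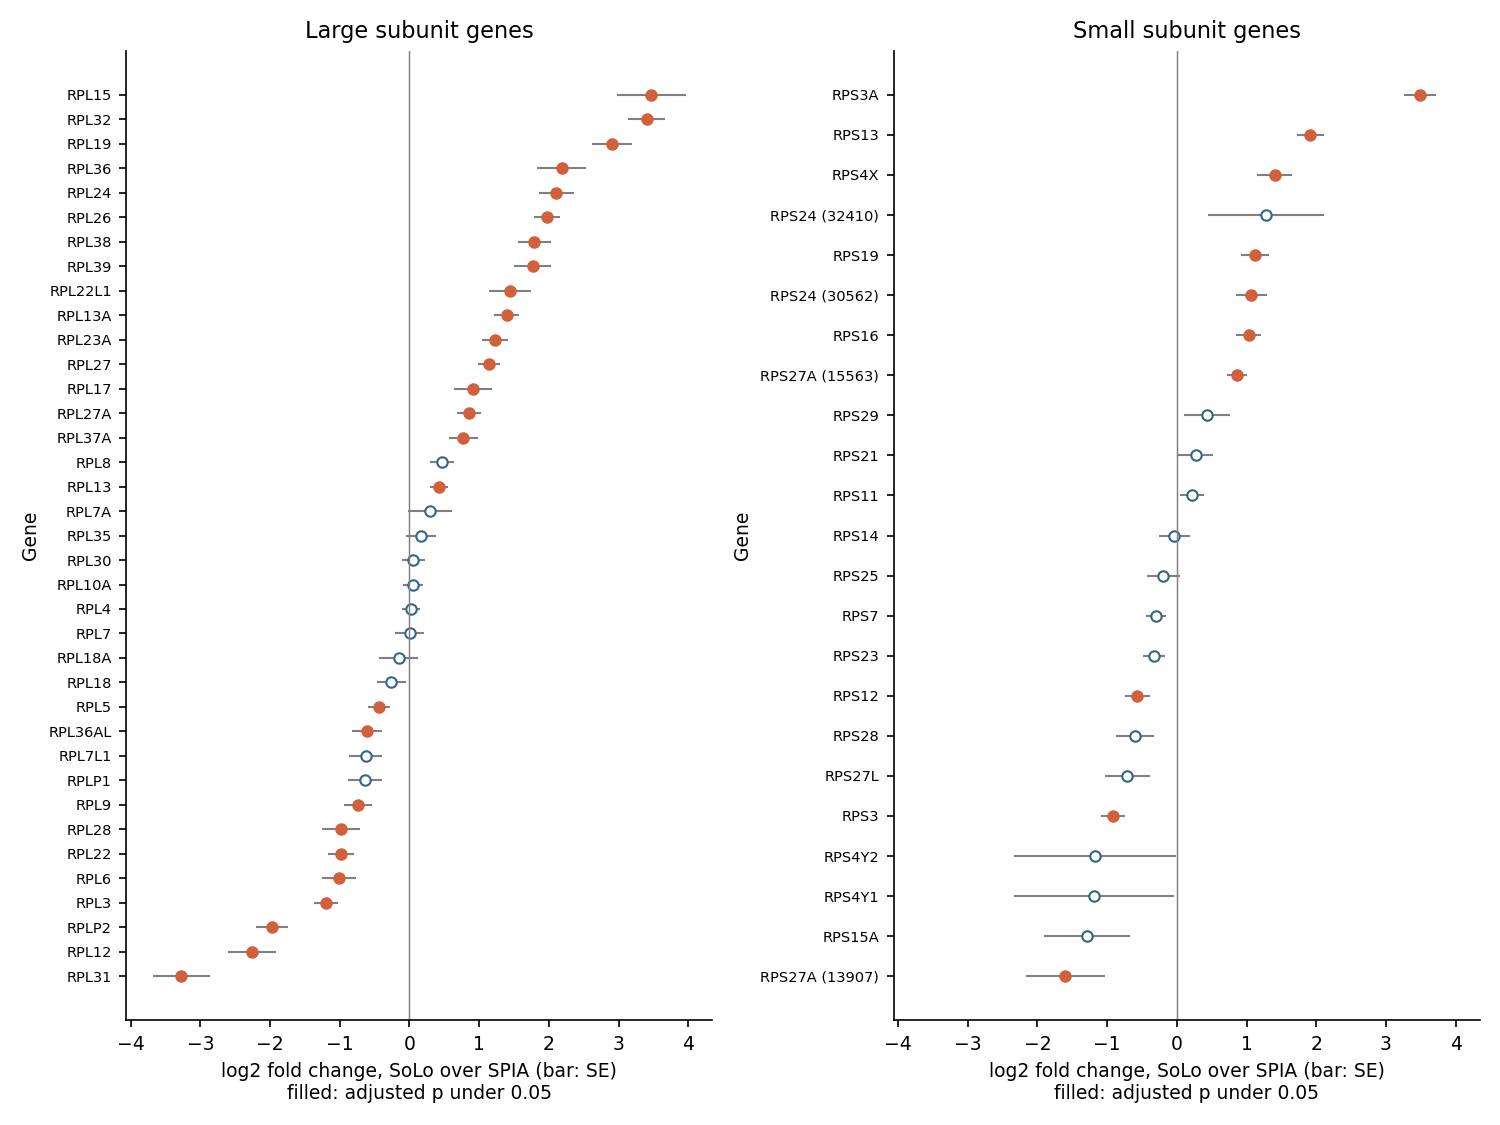
log2 fold change of tested members in SoLo over SPIA libraries of the same 11 embryos, with its SE, large subunit genes on the left and small subunit genes on the right; filled points passed the adjusted p of 0.05. RPS3A, RPL15 and RPL32 lie furthest to the right, at 3.49, 3.47 and 3.40, and RPL31 furthest to the left, at −3.27.

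RPS3A ran from 13.2 through a median of 24.4 to 43.0 CPM in SPIA and from 122 through 347 to 483 CPM in SoLo (both kits scaled together). No SoLo library was as low as the highest SPIA library, and the log2 fold change was 3.49 ± 0.23 (adjusted p = 9.02e-12). RPL32 ran from 8.06 through 18.6 to 30.1 CPM in SPIA and from 114 through 184 to 354 CPM in SoLo, a log2 fold change of 3.40 ± 0.26 (adjusted p = 2.11e-10). RPL19, RPL26, RPS13 and RPS27A (ENSMMUG00000015563) were likewise higher in SoLo in 11 of 11 embryos, by 2.90, 1.97, 1.92 and 0.86 on the log2 scale.

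In the other direction, RPL31, a protein near the mouth of the exit tunnel, ran from 5.94 through 101 to 277 CPM in SPIA and from 5.08 through 11.4 to 28.9 CPM in SoLo. It was lower in SoLo in all 11 embryos, by −3.27 ± 0.41 (adjusted p = 6.86e-07). The stalk protein RPLP2 was lower by −1.97 ± 0.23 (adjusted p = 2.33e-07), from a SPIA median of 280 to a SoLo median of 71.8 CPM, and RPL3 by −1.19 ± 0.17 (adjusted p = 7.06e-06). Both were lower in SoLo in 11 of 11 embryos. RPS3 and RPS12 were lower in 10 of 11 embryos, by −0.91 and −0.57; RPS12 lost its call without 020816_07, 021016_02, 021016_03 or 111715_01 (adjusted p up to 0.0794) and turned to 0.15 with library totals alone. Sequence features of the members and the place of the reads along each transcript were not analysed here.

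The X-linked RPS4X and the Y-linked RPS4Y1 and RPS4Y2 encode versions of the same small subunit protein. RPS4X was at or above 9.49 CPM in every library of both kits, with SPIA medians of 23.6 CPM in 8-cell embryos, 39.3 CPM in morulae and 22.4 CPM in expanded blastocysts, and it passed in no stage comparison with all libraries (from 8-cell to morula in SoLo it did without morula 021016_02, adjusted p = 0.0313). RPS4Y1 instead fell into high and near-zero embryos. It stood at 0.37 CPM in SPIA and 0.24 CPM in SoLo in morula 021016_03, and at 274 and 99.3 CPM in morula 021016_02. In the 11 embryos with both kits, the 3 with RPS4Y1 under 1 CPM in SPIA (021016_03, 111715_01 and 111715_04) were also the 3 under 1 CPM in SoLo. RPS4Y2 was at most 0.17 CPM in those 3 embryos and at least 13.1 CPM in the other 8, in either kit. The lowest RPS4Y1 level above 1 CPM was in morula 022916_01, at 8.13 CPM in SPIA and 6.16 CPM in SoLo. RPS4Y1 and RPS4Y2 had the widest spread of all small subunit genes within SPIA groups, with SDs of log2(CPM + 1) up to 3.34.

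**Figure D5:**
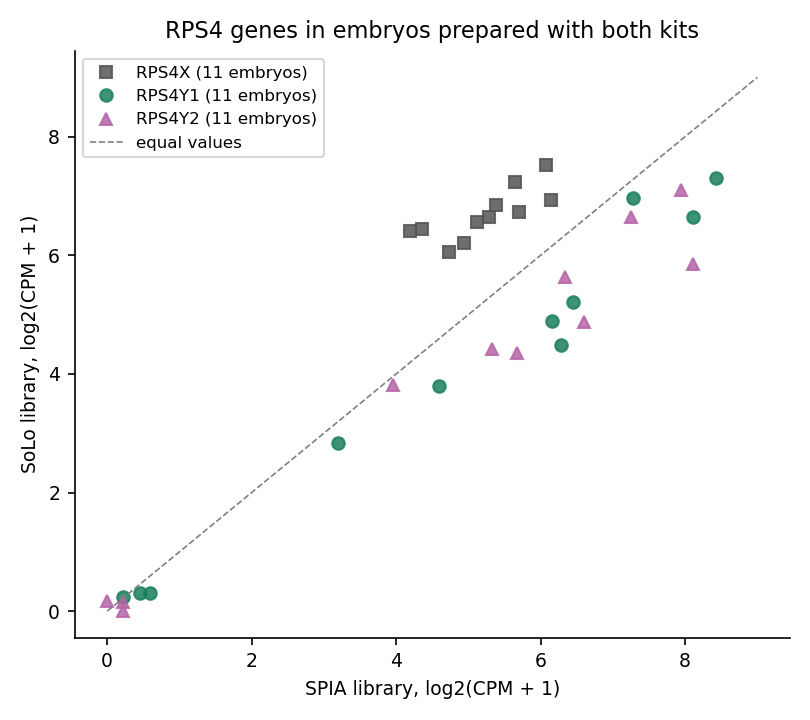
RPS4X, RPS4Y1 and RPS4Y2 in the 11 embryos with both kits, as log2(CPM + 1) in the SPIA library (horizontal axis) and the SoLo library (vertical axis), scaled over both kits together. The Y-linked genes form a group near 0 on both axes (3 embryos) and a group high on both (8 embryos), and RPS4X lies above the line of equal values in every embryo.

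The other paralogs differed in level. RPL3L, known as the muscle form of RPL3, was at 0 in all 36 SPIA libraries and at most 1.24 CPM in SoLo. RPL22L1, the paralog of RPL22, ran from 0 to 15.1 CPM in 8-cell SPIA libraries and from 4.25 to 61.1 CPM in morulae, and 1.72 ± 0.73 did not pass (adjusted p = 0.0884, and 0.0141 with DESeq2). RPL36AL had SPIA medians between 47.6 and 54.3 CPM in the 8-cell, morula and expanded blastocyst groups and passed in no stage comparison of these groups. RPL7L1, which acts in ribosome assembly, also passed in none, with SPIA medians of 38.5, 41.7 and 23.3 CPM.

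Members differed in how much they varied between libraries of 1 group. Among members with a group mean of at least 10 CPM, the median SD of log2(CPM + 1) in 8-cell SPIA libraries was 0.80 for large and 0.69 for small subunit genes, and in 8-cell SoLo libraries 0.35 and 0.34. In expanded blastocysts it was 0.57 and 0.50 in SPIA and 0.25 and 0.32 in SoLo. RPL5 had the lowest SD of the large subunit genes in SPIA morulae, at 0.30, and in SoLo morulae, at 0.04. The high end was held by RPL36AL in 8-cell SPIA libraries (2.09) and by RPL31 in SPIA morulae (1.99). The median library total was 7.52 M counts in SPIA and 7.96 M in SoLo, and the median share of the 20 unnamed identifiers 45.2% and 23.8%; their part in this difference was not tested.

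Other genes of the translation machinery were counted in the same fits. From 8-cell to morula, 9.06% of all genes rose and 10.3% fell in SPIA, and 9.78% rose and 6.92% fell in SoLo. Of 8 elongation factor genes, 3 rose from 8-cell to morula in SPIA (EEF1G by 1.16, EEF1A1 by 0.98 and EEF1A2, which was at 0 in all 9 8-cell libraries and reached 14.1 CPM in morulae) and 3 in SoLo (EEF1B2, EEF1G and EEF1A1, by 1.81, 1.48 and 0.57), and none fell. Of 33 initiation factor genes, 2 rose and 2 fell in SPIA (EIF2B1 by −2.58 and EIF4A2 by −1.09), and 9 rose and 0 fell in SoLo, among them EIF3D at 1.83, EIF2S2 at 1.81 and EIF4G3 at 1.59. EIF2S2 and EIF4G3 were also the 2 that rose in SPIA, by 1.27 and 1.24. Of 8 other transcripts known for a pyrimidine tract at their start, 1 rose in SPIA (PABPC1, 0.88) and 5 in SoLo, led by PABPC1 at 1.66 and NAP1L1 at 1.198. From morula to expanded blastocyst, 5 of 33 initiation factor genes fell in SPIA (9.95% of all genes), with EIF4H at −1.02, EIF1 at −1.67 and EIF3J at −1.19, and 1 in SoLo, EIF3J at −1.11 (1.14% of all genes in either direction). Over both steps, 2 of the 33 rose and 9 fell in SPIA (12.9% and 23.7% of all genes), and 8 rose and 8 fell in SoLo (18.6% and 19.8%). The 5 regulators of this translation tested, among them the S6 kinases RPS6KB1 and RPS6KB2, gave 0 calls in any stage comparison. RPSA, FAU and RACK1, parts of the small subunit whose names lie outside the pattern, were not called from 8-cell to morula in SPIA; in SoLo RPSA rose by 1.65 and FAU fell by 0.97.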

How the data were processed

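The data were a table of read counts per gene identifier that the authors deposited, with 52 columns; whole-number raw counts are stated by their values, and HISAT2 and DESeq2 are named in the submitters' processing notes. No source used here names the counter, genome build, annotation or strand setting, so near-identical copies and processed pseudogenes of these genes may share counts. A column was tied to a sample by its title (47 columns) or by its group alone (2), and 3 columns were not used. Nothing says that libraries of 1 group came from different parents, so p-values measure the spread between these embryos. Members and all gene lists were chosen with earlier results of these data known.

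Counts were tested with edgeR 4.0.16 in R 4.3.3 (TMM scaling, filterByExpr, robust quasi-likelihood fit, all stages of a kit together), and p-values were adjusted by Benjamini-Hochberg over all genes tested. SEs are the log2 fold change over the root of its F value. Levels are CPM scaled by TMM within each kit, or over both kits for the kit comparison. The fit was checked on simulated counts. Named members were, by a rule written from the labels, up to 3 called members per subunit and direction with the lowest adjusted p in each step between neighbouring stages and in the kit comparison, plus a list of known members and paralogs; others were named after their values were seen, and some members are counted but not reported by name here. DESeq2 1.42.0, limma voom (limma 3.58.1), other scalings and filters, and omissions of libraries were alternatives. The 11 embryos with both kits pair by title; across 7830 genes, 10 of 11 correlated best with their own library in the other kit (own values from −0.03 to 0.58), the exception being expanded blastocyst 111715_02, without which the kit comparison gave 22 members higher and 15 lower.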

Additional observations from a re-analysis of the deposited data

Results flagged for a closer look

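Of 92 values by group checked for a library that stands apart from the other libraries of its group, 8 did. For normally distributed values the cut-off is passed in about 1 in 20 groups. Levels were checked as CPM, which need not be so distributed. The members were also measured in the same libraries, so the 92 checks are not independent and 8 is not set against that rate. The check covered the 8-cell SPIA, 8-cell SoLo and expanded blastocyst SoLo groups only. SPIA morulae, SPIA expanded blastocysts, delayed blastocysts and SoLo morulae lay outside its range of group sizes and were not checked. Library 020816_09 of the 8-cell SPIA group was involved in 3: its RPL3 level of 2670 CPM was the highest (next 313 CPM), its RPL13 level of 69.2 CPM the lowest (next 155 CPM), and its ratio of small to large subunit counts of 0.502 the lowest (next 0.753). Library 011516_02 of the same group was the highest in 3 members: RPL5 at 524 CPM (next 268), RPL7 at 173 CPM (next 74.8) and RPS27A (ENSMMUG00000015563) at 248 CPM (next 132). In SoLo expanded blastocysts, RPL3L was highest in 111715_02 at 1.24 CPM (next 0.281) and RPS27L in 112415_03 at 217 CPM (next 98.8). What sets these libraries apart was not tested.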

How the results depend on the processing

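In SPIA, from 8-cell to morula, members higher (16) numbered 1 with library totals and 1 with these groups fitted alone. They numbered 7 in libraries under 12 M counts and 0 within code 020816. In embryos that also have SoLo libraries, a choice made after seeing the data, they numbered 0. In these fits 5.87%, 2.23%, 6.78%, 0.0356% and 3.09% of all genes rose in turn (9.06% in the reported fit). Calls fell over all genes too, but less than among members, for example with library totals or in embryos with both kits. Members lower (1) numbered 0 with DESeq2, voom, voom with a random block for title code, these groups alone, code 020816 and embryos with both kits. From morula to expanded blastocyst, members lower (12) numbered 5 with DESeq2 size factors, 6 with voom, 7 with the title-code block and 0 in embryos with both kits, where 6.99%, 2.46%, 3.18% and 0.0599% of all genes fell. From 8-cell to expanded blastocyst, members higher (3) numbered 5 with DESeq2 size factors, 0 with totals and 1 without a filter. They numbered 12 with DESeq2 and 10 with voom. In these fits 13.7%, 10.3%, 13.6%, 14.8% and 23.4% of all genes rose in turn (12.9% in the reported fit). Members higher numbered 11 with the title-code block, 0 under 12 M counts and 0 in embryos with both kits. The shares of all genes that rose in these fits are not given here, so these counts are not read as results about the members. Members lower (5) numbered 3 with size factors, voom, the title-code block and under 12 M counts, and 1 in embryos with both kits. With size factors and voom, 21.6% and 12% of all genes fell (23.7% in the reported fit). For the other settings of that count the share is not given here, and their counts are not read as results about the members.

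In SoLo, from 8-cell to morula, members higher numbered 8 with totals and 8 with these groups alone, lower 1 with DESeq2 and 1 with voom. With totals and with these groups alone, 6.77% and 4.8% of all genes rose (9.78% in the reported fit). With DESeq2 and voom, 13.9% and 11.3% of all genes fell (6.92% in the reported fit). Medians for large and small subunit genes were 0.20 and 0.23 with totals, and 0.76 and 0.73 without the 3 cumulus-marked 8-cell embryos, which leaves 1 8-cell library (020816_08) and moved the median over all genes from −0.06 to 0.33. To the expanded blastocyst, totals gave 9 higher and 7 lower with medians of 0.16 and 0.056. With totals, 13.3% of all genes rose and 26.4% fell (18.6% and 19.8% in the reported fit). Members lower numbered 3 with size factors, 4 with the stricter CPM filter, 3 with DESeq2 and 2 with voom. In these fits 20.9%, 21.2%, 23.1% and 20.5% of all genes fell in turn. Without those 3 embryos, again with 1 8-cell library, the medians were 0.87 and 0.77. The median over all genes there went from −0.05 to 0.51. For the kits, totals gave 35 and 3, with medians of 0.88 and 0.62. The paired fit with a replicate block for embryo gave 24 and 14. The shares of all genes called in these kit fits are not given here, so their counts are not set against all genes.

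Turned in direction: RPL3 to 0.17 (8-cell to morula, under 12 M counts) and 0.000501 (embryos with both kits), and from 8-cell to expanded blastocyst to 0.068 (DESeq2) and 0.059 (under 12 M counts); RPS12 between kits to 0.15 with totals. Without the 20 unnamed identifiers, mean large and small subunit shares were 0.534% and 0.429% (8-cell), 0.830% and 0.680% (morula), 0.709% and 0.489% (expanded) and 0.796% and 0.678% (delayed) in SPIA, and 0.960% and 0.697%, 1.31% and 0.936%, and 1.31% and 0.855% in the first 3 stages in SoLo.

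Leaving out each library in turn gave, higher and lower, 8 to 17 and 0 to 2 (8-cell to morula), 0 and 5 to 14 (morula to expanded), and 1 to 6 and 3 to 6 (8-cell to expanded) in SPIA; 11 to 17 and 0 to 1, 0 and 0 to 1, and 16 to 25 and 1 to 3 in SoLo; and 22 to 24 and 10 to 15 between kits. The causes were not tested. Depth limits members at 0: 3 counts are 4.99 CPM in the smallest SPIA library and 0.527 CPM in the smallest SoLo library.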
